A study of Populus tomentosa with 4 samples.

Results

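Pentatricopeptide repeat proteins that are not predicted targets of the poplar family miR475 formed a set of 199 loci among the 10305 loci listed as predicted microRNA targets. A locus was taken when its Swiss-Prot description held the word pentatricopeptide and none of its lines named a miR475 microRNA. The table held 299 pentatricopeptide loci in all, and the other 100 were listed for miR475. The signals and fold changes were not part of that choice, but a locus could enter the table only through a microRNA that passed the authors' threshold.

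The microRNAs came from small RNA sequencing of shoot tips, labelled SAM for the shoot apical meristem, and of the leaves around them in Populus tomentosa, the Chinese white poplar. Both tissues were taken from healthy mature trees growing outdoors, with no treatment named, and each gave 2 libraries, 4 in all. The authors' table held 1 normalized signal per tissue for each microRNA, a log2 fold change that sets shoot tips over leaves, a false discovery rate (FDR) and no value per library. No SD can therefore be given, and depth is not stated. Whether the libraries of 1 tissue came from separate trees is not in the labels, so the FDR may reflect technical spread alone. No messenger RNA was measured: a locus here is a prediction, the labels of the tissues could not be checked against marker genes, and fewer cells of a type cannot be told apart from less microRNA per cell.

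Pentatricopeptide repeat (PPR) proteins are a large family of land plants that bind RNA in mitochondria and chloroplasts. They act in the splicing, editing, cleavage, stability and translation of organelle transcripts. P-class members consist mainly of one kind of repeat, while PLS-class members alternate repeats of different lengths and often end in E or DYW domains, and many PLS-class members direct RNA editing. MicroRNAs of plants pair with nearly complementary transcripts and lead to their cleavage or silencing, and PPR transcripts are known targets of miR475 in poplar.

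The sequences listed for the most of the 199 loci are printed here because the results turn on them, with bases 2 to 8, the seed, in capitals. They are written 5′ to 3′ as in the authors' deposited table, which uses U for known families and T for microRNAs that carry only a running number (m0141-3p and m0911-3p below). Sequences with several names are given under 1 of them.
miR396c: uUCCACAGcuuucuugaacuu
miR396a: uUCCACAGcuuucuugaacug
miR396g-5p: uUCCACGGcuuucuugaacuu
miR396f: uUCCACGGcuuucuugaacug
m0141-3p: gGTAGATCgaccgtggattc
miR6459b: uCUCAAGCccaaauucgauc
miR6427-5p: uCGUAAUGcuucauucucacaa
miR6457b: uUAGUUUGgcagccucuucuc
m0911-3p: aTTCTCATgtgggctagttaagtg
miR1444a: uCCACAUUcggucaauguuc
miR1444b: uUCACAUUcggucaacguuc
miR403a: uUAGAUUCacgcacaaacucg

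The 4 miR396 sequences fall into 2 seed groups. Counted from the 5′ end of miR396c, miR396a carries U21G outside the seed, miR396g-5p carries A7G inside it, and miR396f carries both A7G and U21G. The other sequences printed have a seed each. No sequence listed for the 199 loci lay within 3 differences of miR475 at equal length.

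Predictions for the 199 loci were spread over most of the listed microRNAs, but a few sequences held many of them. Of the 107 distinct sequences in the table, 87 were listed for at least 1 of the loci, 45 of known families and 42 numbered. These made 305 pairs of locus and sequence. Counted per sequence, 25 had 1 locus, 20 had 2 loci and 19 had at least 5 loci. The 10 sequences with the most loci reached 81 of the 199. MiR396c led with 18 loci, followed by m0141-3p with 17, miR396a with 14, miR6459b with 13 and miR6427-5p with 12. As a share of all loci listed for a sequence, the 199 made up 11.8% for m0141-3p, 11.2% for miR396c, 9.92% for miR6427-5p, 8.70% for miR396a and 8.33% for miR6459b. The median over all 107 sequences was 1.42%, and the 199 loci are 1.93% of all predicted loci.

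**Figure D1:**
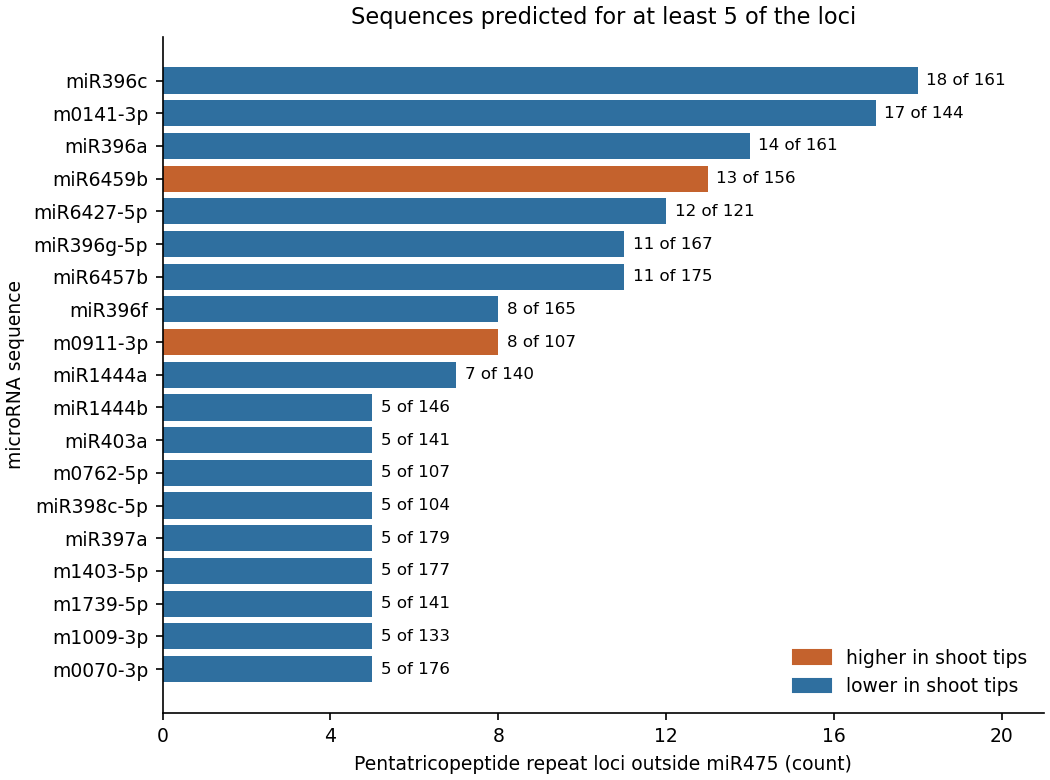
Number of the 199 pentatricopeptide repeat loci (x axis, count) listed for each of the 19 sequences with at least 5 of them (y axis), with the number of all loci of that sequence beside the bar. MiR6459b, with 13 of 156 loci, and m0911-3p, with 8 of 107, are the 2 sequences higher in shoot tips, and the other 17 are lower as the authors scaled them, 7 of which reverse when 2.17 is added to every log2 fold change.

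As scaled by the authors, most of the loci were listed for microRNAs that were lower in shoot tips than in leaves. Of the 199, 46 had sequences higher in shoot tips only, 123 had sequences lower only and 30 had sequences of both directions. Thus 76 loci, or 38.2%, had a sequence that was higher, against 44.1% of all predicted loci. Likewise 153 loci, or 76.9%, had a sequence that was lower, against 67.0% of all predicted loci. The difference from the background is a description, since loci listed for the same sequence are not independent. The 100 PPR loci of miR475 all have a lower sequence, because miR475b-3p itself, as scaled by the authors, stood at 358 in shoot tips against 826 in leaves, or -1.20 as the log2 fold change at an FDR of 0.00124, in the authors' deposited table.

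The microRNAs behind the loci divided nearly as the whole table did. Among the 87 sequences, 34 were higher in shoot tips (39.1%) and 53 lower (60.9%), against 42.1% higher and 57.9% lower among the 107 sequences listed. Of the 159 names of these sequences, 58 were higher (36.5%) and 101 lower (63.5%), against 37.8% and 62.2% of the 193 listed in the authors' deposited table. Every listed name passed the authors' FDR of 0.05, so these shares say nothing of microRNAs that were not listed. In the authors' scaling the lower sequences had more loci each. Of the 305 pairs, 84 (27.5%) were with higher and 221 (72.5%) with lower sequences. Of the 14117 pairs of all predicted loci, 38.9% and 61.1% were. This split depends on the scaling, since miR396c, with 18 loci, and miR6427-5p, with 12, are among the 10 sequences reversed below. It also counts the 22 miR396 loci once for each of the miR396 sequences that list them. The median log2 fold change of the 87 sequences was -1.97, against -1.65 for the 107, from values of the authors' deposited table. If each tissue's signals were scaled to a total of 1000000, which is not stated, miR159 and miR319 took 44.0% of the total in shoot tips and 9.24% in leaves. Leaving both families out of the total would raise every log2 fold change by 0.70 and reverse none of the 14 described below with a signal in both tissues. Letting the listed sequences alone set the total, without both families, would add 2.17, although their sum is no depth, since microRNAs were listed only when called different. That reverses 10 of the 87 sequences, namely miR396c, miR396g-5p, miR396f, miR6427-5p, miR403a, miR403c-5p, miR482c-3p, miR171l-5p, m0762-5p and m1403-5p. Then 57.3% of the 199 loci would have a higher sequence, against 57.1% of all predicted loci, and 62.3% a lower one, against 55.4%. With the shift of 0.70 the smallest falls would be -0.40 for miR396g-5p, -0.45 for miR6427-5p, -0.50 for miR396f and -0.58 for miR403a.

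**Figure D2:**
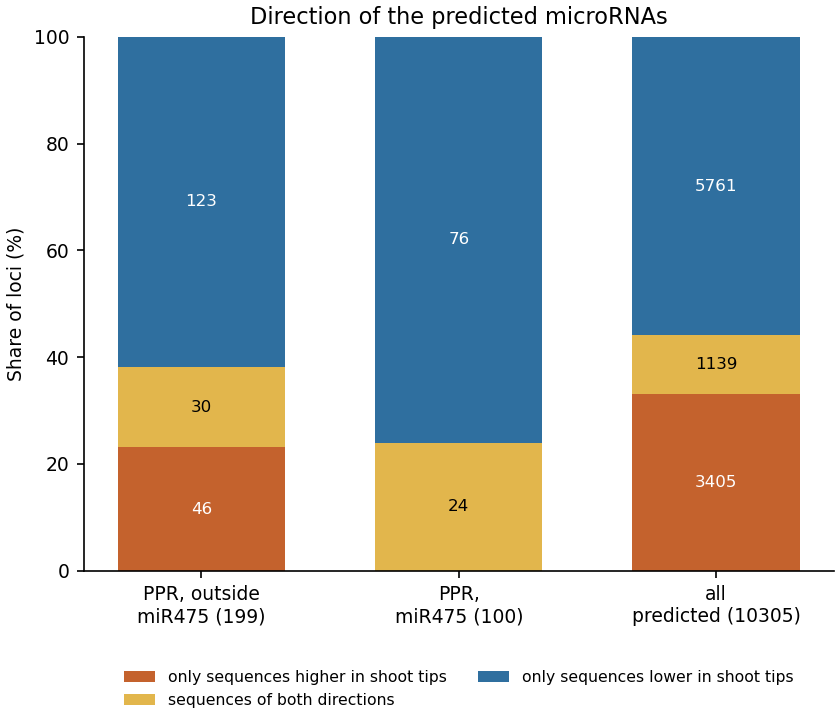
Share of loci (y axis, %) whose listed sequences are only higher in shoot tips, of both directions, or only lower in shoot tips, for the 199 PPR loci outside miR475, the 100 PPR loci of miR475 and all 10305 predicted loci, with the counts in the bars. The first bar holds 46, 30 and 123 loci.

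The 4 miR396 sequences, a family known to target growth-regulating factors of leaf growth, together reached 22 of the 199 loci, or 11.1%, and all 4 were lower in shoot tips as scaled by the authors, while 3 of them, all but miR396a, reverse with the shift of 2.17. MiR396c stood at 38708 in shoot tips against 126455 in leaves, or -1.70 as the log2 fold change at an FDR of 3.79e-08, in the authors' deposited table. MiR396a stood at 13389 in shoot tips against 93155 in leaves, or -2.79 as the log2 fold change at an FDR of 1.20e-17, in the authors' deposited table. The forms with the other seed were less abundant, and miR396g-5p stood at 1497 in shoot tips against 3208 in leaves, or -1.10 as the log2 fold change at an FDR of 0.00102, in the authors' deposited table. MiR396f stood at 744 in shoot tips against 1719 in leaves, or -1.20 as the log2 fold change at an FDR of 0.000423, in the authors' deposited table. As listed, the larger falls belong to the forms with the more abundant seed.

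Many loci of miR396 were shared among its sequences. Of the 22, 4 were listed for all 4 sequences, 5 for 3 of them, 7 for 2 and 6 for 1. MiR396c and miR396a, which share a seed, had 13 loci in common, out of 18 and 14. MiR396g-5p and miR396f, which share the other seed, had 6 in common, out of 11 and 8. Across the seeds, miR396c shared 8 with miR396g-5p and 5 with miR396f, while miR396a shared 8 with miR396g-5p and 6 with miR396f, so overlap did not follow the seed throughout. These loci included both poplar loci of At2g31400 (GUN1 of Arabidopsis, which acts in signalling from chloroplast to nucleus) and both of At5g67570 (DG1, needed for early chloroplast development in Arabidopsis). None of the 4 sequences was listed for a PPR locus of miR475. The 22 are 7.21% of the 305 loci listed for the family.

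The numbered microRNA m0141-3p, lower in shoot tips, was listed for 17 loci, of which 10 had no other sequence. It stood at 7.35 in shoot tips against 80.6 in leaves, or -3.40 as the log2 fold change at an FDR of 4.08e-06, in the authors' deposited table. By gene name its loci were nearly all of 1 structural class. Of the 17, 15 carried a PCMP gene name, 8 with the letter H and 7 with the letter E, against 88 of the 199 (44.2%). Swiss-Prot gives PCMP names to PLS-class proteins of Arabidopsis, with H for those ending in a DYW domain and E for those ending in E domains without it. By wording, 3 of the 17 loci were mitochondrial, 1 was chloroplastic and 13 were neither. They included POPTR_0005s01450 (At1g08070, in Arabidopsis an editing factor of chloroplasts). POPTR_0002s13240, without a PCMP name, was another (At1g47580, named DWY1 in the table and known as a partner protein in chloroplast editing). Among the 100 PPR loci of miR475, m0141-3p was listed for 0.

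MiR6459b, higher in shoot tips, was listed for 13 loci, and 7 of them had 1 description, At2g34400. It stood at 930.3 in shoot tips against 429 in leaves, or 1.11 as the log2 fold change at an FDR of 0.00323, in the authors' deposited table. The sequence of miR6459a-3p, also listed, is complementary to most of miR6459b, and its 2 signals and fold were the same. Since the strand setting of the read counting is not given, the value of miR6459b is uncertain. All 7 of the At2g34400 loci among the 199 were listed for miR6459b, and the 100 PPR loci of miR475 held 0 loci of At2g34400. Several of the 7 had no other sequence and so entered the table through miR6459b alone. Loci of At2g34400 without a listed microRNA could not be seen. Both loci of At2g35130 and the single DOT4 locus were also listed for miR6459b. DOT4 is a chloroplast protein whose loss disturbs leaf veins in Arabidopsis. Only 1 of the 13 had a PCMP name, but the At2g34400 description carries no gene name, so its class is not given by the table.

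MiR6427-5p and miR6457b, 2 families known from Populus, were both lower in shoot tips, though miR6427-5p reverses with the shift of 2.17, and were listed for 12 and 11 loci. MiR6427-5p stood at 133 in shoot tips against 295 in leaves, or -1.15 as the log2 fold change at an FDR of 0.0235, in the authors' deposited table. MiR6457b stood at 28.2 in shoot tips against 608 in leaves, or -4.40 as the log2 fold change at an FDR of 1.04e-28, in the authors' deposited table, a far larger fall. Each had 8 loci with a PCMP name, a name carried by 44.2% of the 199. MiR6427-5p also had 7 loci among the PPR loci of miR475, the most of the 12 sequences printed, while miR6457b had 1.

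The numbered m0911-3p, of 24 nt, was listed for 8 loci, none with a PCMP name. Its signal was 12.1 in shoot tips against a listed 0 in leaves, with an FDR of 0.0211, in the authors' deposited table. Of its 8 loci, 5 were also listed for a sequence of the opposite direction. They included both loci of At5g27270, which were also listed for 3 miR396 sequences, and both loci of At1g51965, also listed for miR6427-5p.

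MiR1444 of poplars, known to target polyphenol oxidases, and miR403, a regulator of AGO2, both had lower signals in shoot tips, although both miR403 sequences reverse with the shift of 2.17. MiR1444a, with 7 loci, stood at 4.04 in shoot tips against 394 in leaves, or -6.55 as the log2 fold change at an FDR of 9.40e-26, in the authors' deposited table. MiR1444b, with 5 loci, stood at 139.6 in shoot tips against 13289 in leaves, or -6.54 as the log2 fold change at an FDR of 7.26e-64, in the authors' deposited table. The sequence of miR1444d, also listed, is complementary to miR1444b over 20 nt. The strand setting of the read counting is not given, which makes the value of miR1444b uncertain. MiR1444a and miR1444b had 3 loci in common, one of which, POPTR_0015s08030, is described as PTAC2, a protein of the transcription complex of chloroplasts. The other PTAC2 locus, POPTR_0012s07590, was listed for miR167h-3p, at 8.86 in shoot tips against 134 in leaves, or -3.88 as the log2 fold change at an FDR of 1.69e-09, in the authors' deposited table. Other names of that sequence went down to 4.10 in shoot tips against 39.6 in leaves, with folds up to -3.11, in the authors' deposited table. MiR403a, with 5 loci, stood at 201 in shoot tips against 490.3 in leaves, or -1.28 as the log2 fold change at an FDR of 0.0199, in the authors' deposited table.

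**Figure D3:**
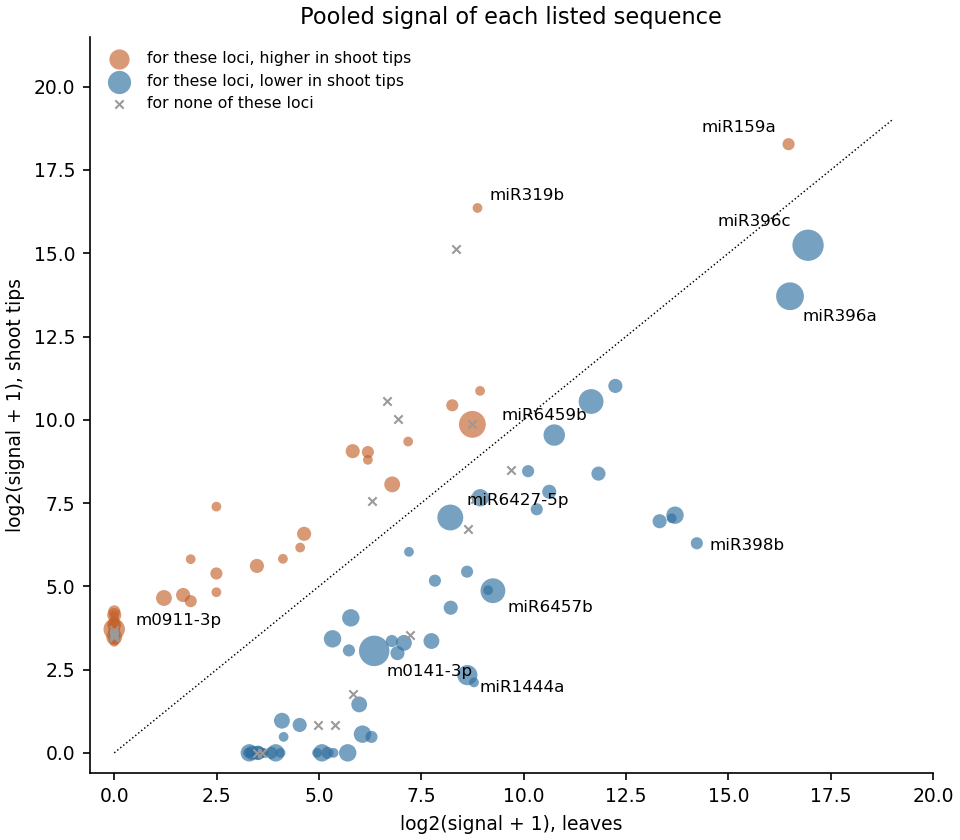
Pooled signal of each of the 107 listed sequences in shoot tips (y axis) and leaves (x axis), both as log2(signal + 1), with circle area growing with the number of the 199 loci and crosses for the 20 sequences listed for none. Points on the axes are listed at 0 in 1 tissue, the dotted line marks equal signals, and the circles of miR396c and miR396a lie at high signals on the leaf side.

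The other microRNAs named for the size of their fold or of their signal had 1 to 5 of the loci each. MiR319b, of a family that targets TCP factors of leaf growth, had 1 locus, with 84092 in shoot tips against 468 in leaves, or 7.46 as the log2 fold change at an FDR of 8.99e-116, in the authors' deposited table. Other names of that sequence reached 92273 in shoot tips against 728 in leaves, with folds down to 6.96, in the authors' deposited table. That locus, POPTR_0011s03510 (At3g13160, mitochondrial wording), was also listed for the lower m1403-5p. MiR398b, of a family that targets copper/zinc superoxide dismutases, had 2 loci, with 77.4 in shoot tips against 19224 in leaves, or -7.93 as the log2 fold change at an FDR of 1.05e-115, in the authors' deposited table. MiR159a, which targets GAMYB-type factors and had the highest mean signal, had 2 loci, with 317047 in shoot tips against 90908 in leaves, or 1.80 as the log2 fold change at an FDR of 8.26e-08, in the authors' deposited table.

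The rest of those named for their fold were listed at 0 in 1 tissue, so no fold is given. MiR397a, which targets laccases, had 5 loci and a listed 0 in shoot tips against 51.1 in leaves, with an FDR of 3.34e-06, in the authors' deposited table. The numbered m0131-5p, with 1 locus, and m0130-5p, with 2 loci, had a listed 0 in shoot tips against 40.0 and 36.0 in leaves in the authors' deposited table. The 24-nt m1720-5p, m0862-3p and m1147-5p, with 2 loci, 1 locus and 3 loci, had 18.0, 16.4 and 16.6 in shoot tips against a listed 0 in leaves in the authors' deposited table. Of the 34 higher sequences, 13 were listed at 0 in leaves, and of the 53 lower ones, 16 were listed at 0 in shoot tips.

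The microRNAs listed for the loci spanned a wide range of signals. At least 1 sequence with a signal of 1000 or more in a tissue was listed for 48 of the 199 (24.1%), against 21.6% of all predicted loci, and 22 of these 48 were miR396 loci. A signal of 100 or more was reached for 112 loci (56.3%, against 52.1%). For 35 loci (17.6%, against 23%) every listed sequence had a signal below 20 in both tissues. Sequences of 21 nt were listed for 118 loci (59.3%, against 56.7% of all predicted loci) and sequences of 24 nt for 45 (22.6%, against 23.8%), both near the background. Of the 21 sequences of 24 nt, 17 were higher in shoot tips, against 23 of the 28 in the whole table. Of the 44 of 21 nt, 33 were lower, against 37 of 49, so the split by length was that of the whole table.

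The descriptions named mitochondria for 52 of the 199 loci (26.1%), chloroplasts for 28 (14.1%) and neither for 119 (59.8%). No description named both. The PPR loci of miR475 had mitochondrial wording for 52 of 100 and chloroplastic wording for 10. Among all predicted loci, 2.53% had mitochondrial and 6.12% chloroplastic wording, so both words were more frequent in the PPR descriptions. The wording is that of the Arabidopsis entry and may be a prediction. An example is At5g42310, with mitochondrial wording at 2 loci, whose protein has been studied in Arabidopsis chloroplasts as CRP1. By direction, 19 of the 52 mitochondrial loci (36.5%) had a higher and 45 (86.5%) a lower sequence. Of the 28 chloroplastic loci, 13 (46.4%) had a higher and 20 (71.4%) a lower one. The 119 loci with neither word had 37% and 73.9%, and all predicted loci 44.1% and 67.0%.

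Gene names also differed between the 199 loci and those of miR475. A PCMP name stood in 88 of the 199 descriptions (44.2%), 43 with H, 42 with E and 3 with A, against 4 of the 100 PPR loci of miR475, all 4 with E. Leaving out the descriptions without any gene name gave 88 of 176 against 4 of 99. In contrast, 23 of the miR475 loci and 0 of the 199 were described as At1g12700, a P-class protein of the group related to restorers of fertility. Of the 42 PCMP-E loci, 21.4% had a higher and 85.7% a lower sequence, and of the 43 PCMP-H loci 30.2% and 76.7%. Of the 111 loci without such a name 47.7% had a higher and 73.9% a lower sequence, against 44.1% and 67.0% of all predicted loci. The share with a higher sequence was thus smaller among PCMP-E and PCMP-H loci. However, the 111 include 23 loci without any gene name, whose class is not given. Among these are the 7 At2g34400 loci, all listed for the higher miR6459b. Single sequences also weigh on the contrast: the lower m0141-3p had 15 PCMP loci, the higher miR6459b and m0911-3p 1 and 0. No test accompanies these shares, because loci of 1 sequence move together.

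**Figure D4:**
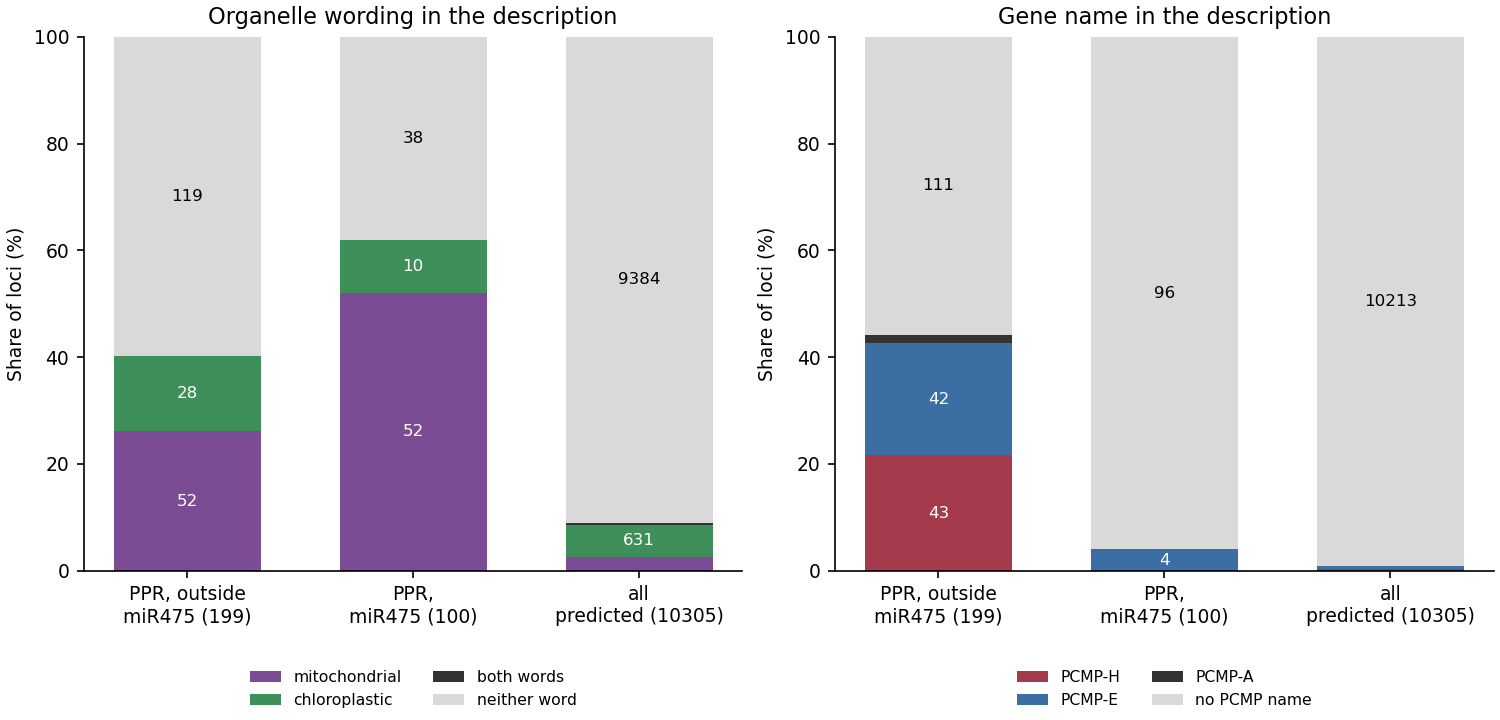
Share of loci (y axis, %) by organelle wording (left) and by PCMP gene name (right) in the Swiss-Prot description, for the 199 PPR loci outside miR475, the 100 PPR loci of miR475 and all 10305 predicted loci, with counts in the larger segments. PCMP-H and PCMP-E names fill 43 and 42 of the 199 loci and 0 and 4 of the 100.

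Most loci had 1 predicted sequence, and 13 of the 21 loci with the most sequences had miR396 among them. Of the 199 loci, 131 had 1 sequence, 47 had 2 and 21 had at least 3 (10.6%, against 7.36% of all predicted loci). With miR396 counted once, 8 of these 21 fell below 3. Counting each known family and each numbered sequence once left 12 loci with at least 3 (6.03%, against 4.87%), and the highest number was 4.

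POPTR_0003s08800 and POPTR_0012s02240 had the most sequences, 6 each. POPTR_0003s08800 (At5g46580, chloroplastic, known in Arabidopsis as SOT1, which acts on chloroplast RNA) was listed for all 4 miR396 sequences. Its other 2 went in opposite directions: m1889-5p had 55.7 in shoot tips and 16.4 in leaves, while m2472-5p had a listed 0 in shoot tips against 8.62 in leaves, in the authors' deposited table. POPTR_0012s02240 (At3g49240, EMB1796, a name given for embryo defects) was listed for 3 miR396 sequences, miR397a and miR403a, all lower. Its higher sequence was miR169ae, whose family acts on nuclear factor Y subunits, at 94.4 in shoot tips against 23.9 in leaves, or 1.95 as the log2 fold change at an FDR of 0.00533, in the authors' deposited table.

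The next loci had lower sequences only, or 1 to 2 higher ones beside miR396. POPTR_0003s11580 and POPTR_0001s08060, both At4g22760 with the name PCMP-E6, shared all 4 miR396 sequences, and POPTR_0003s11580 also had miR164b. POPTR_0014s11190 (At2g25580, PCMP-H75, an editing factor of mitochondria in Arabidopsis) had the 4 miR396 sequences and miR171l-5p, at 64.6 in shoot tips against 146 in leaves, or -1.17 as the log2 fold change at an FDR of 0.0448, in the authors' deposited table. POPTR_0001s15470 (At5g47360) had 4 lower sequences of 4 families or numbers, among them miR398c-5p at 0.476 in shoot tips against 65.9 in leaves, or -6.65 as the log2 fold change at an FDR of 2.22e-06, in the authors' deposited table. POPTR_0007s02400 (At3g18110, EMB1270, chloroplastic) had miR396a, miR396f and 2 numbered sequences, all lower. POPTR_0001s37250 (At3g02650, mitochondrial) had 3 miR396 sequences and the higher m2141-5p, at 55.3 in shoot tips against 2.65 in leaves, or 4.23 as the log2 fold change at an FDR of 2.97e-05, in the authors' deposited table. POPTR_0010s08940 (At3g23020) had miR396a and miR396c beside the higher miR160a, which targets auxin response factors, at 266 in shoot tips against 109.6 in leaves, or 1.27 as the log2 fold change at an FDR of 0.00836, in the authors' deposited table. POPTR_0019s07590 (At5g27270) had 3 miR396 sequences and m0911-3p.

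**Figure D5:**
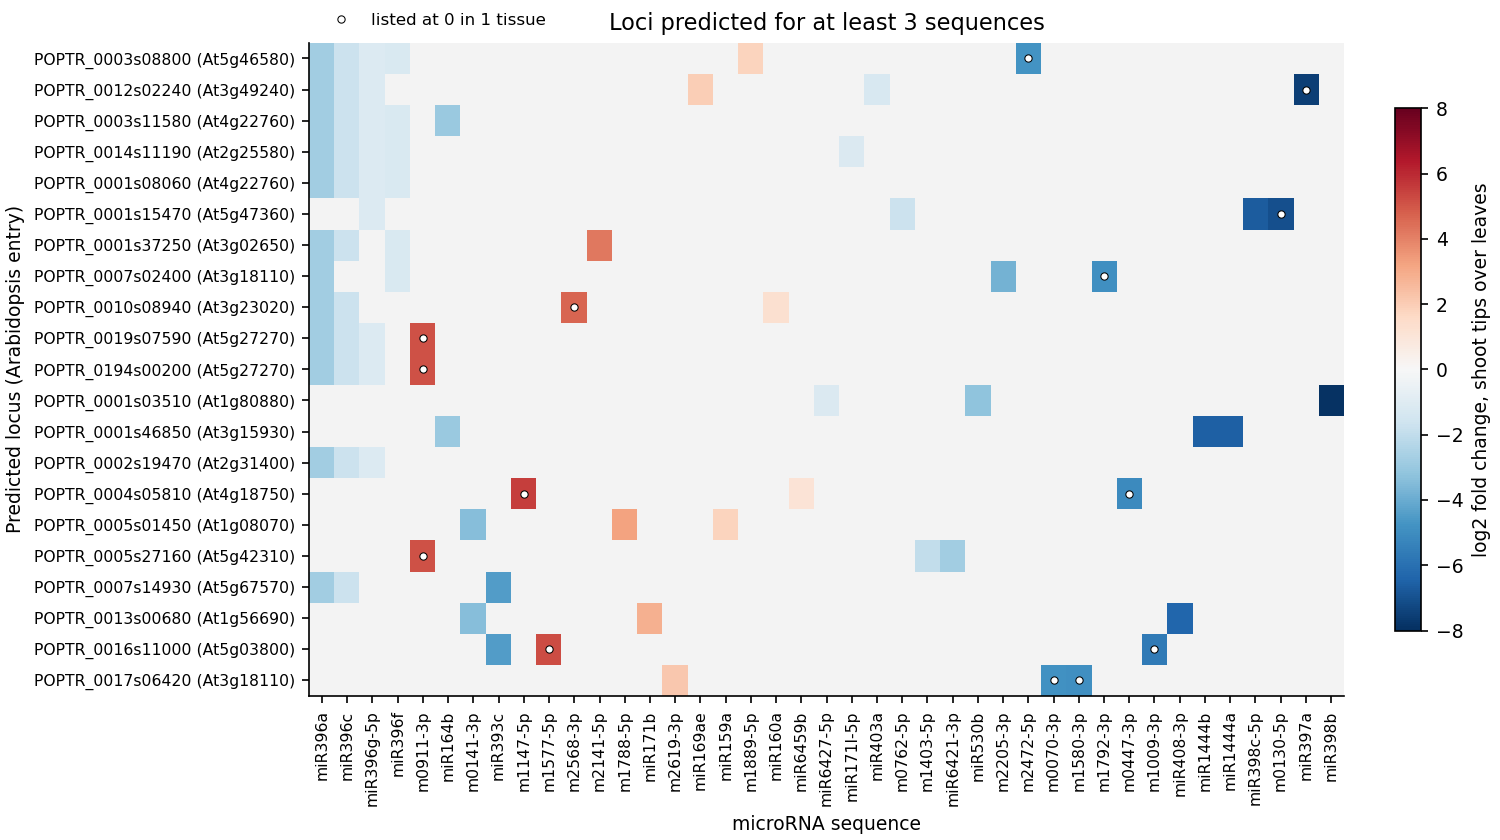
The 21 loci with at least 3 listed sequences (y axis, with the Arabidopsis entry of the description) and their microRNAs (x axis), coloured by the authors' log2 fold change (shoot tips relative to leaves), with dots where the microRNA is listed at 0 in 1 tissue and its fold has no measured basis. Grey cells hold no prediction, and 13 of the 21 loci have a miR396 sequence.

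Loci with sequences of both directions numbered 30, or 15.1%, against 11.1% of all predicted loci, and 11 of them carried a gene name other than an Arabidopsis number. POPTR_0005s01450 (At1g08070, PCMP-H12) was listed for miR159a and m1788-5p, both higher, and for the lower m0141-3p. POPTR_0013s00680 (At1g56690, PCMP-H69, mitochondrial) was listed for miR171b, at 522 in shoot tips against 72.3 in leaves, or 2.84 as the log2 fold change at an FDR of 5.60e-11, in the authors' deposited table. It was also listed for miR408-3p, of a family that targets copper proteins, at 123 in shoot tips against 10242 in leaves, or -6.34 as the log2 fold change at an FDR of 1.21e-51, in the authors' deposited table. POPTR_0010s02060 (At2g36980, PCMP-E73, mitochondrial) was listed for miR171i, at 532 in shoot tips against 55.7 in leaves, or 3.24 as the log2 fold change at an FDR of 1.30e-13, and for m1798-5p, at 19.5 in shoot tips and 297 in leaves, in the authors' deposited table. POPTR_0010s15110 (At3g16890, PPR40, a protein of the mitochondrial respiratory chain) and POPTR_0016s05180 (At3g13770, PCMP-H85, mitochondrial) had miR6457b as the lower sequence, and m0661-3p and miR6425e as the higher. POPTR_0015s02060 (At3g49170, chloroplastic) had m1720-5p and miR6427-5p, and POPTR_0002s08800 (At4g08210, PCMP-E100) had m1666-3p and miR408-5p. The remaining loci of this group were POPTR_0017s06420 (At3g18110) with 3 numbered sequences, POPTR_0009s11640 (At3g18840, PCMP-E92) with 2, POPTR_0012s02240, described above, and the MRL1 locus.

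The loci described by a protein name in place of an Arabidopsis number were few and mostly chloroplastic. POPTR_0004s17400, described as MRL1, which in Arabidopsis keeps the transcript of the large Rubisco subunit stable, had m0862-3p, higher, and miR399f, at 6.97 in shoot tips against 120.0 in leaves, or -4.07 as the log2 fold change at an FDR of 8.67e-08, in the authors' deposited table. POPTR_0004s05810, described as DOT4, had miR6459b and m1147-5p, both higher, and m0447-3p, with a listed 0 in shoot tips against 10.4 in leaves in the authors' deposited table. The 2 DWY1 loci differed, with m0141-3p, lower, for POPTR_0002s13240 and m1147-5p, higher, for POPTR_0006s12990. M1147-5p was also listed for POPTR_0014s06440 (At2g45350), whose protein CRR4 works with that partner in chloroplast editing in Arabidopsis, a locus named after its values were seen. POPTR_0017s02600, described as PNM1, a protein of mitochondria and nucleus in Arabidopsis, had m0762-5p, at 15.6 in shoot tips against 53.9 in leaves, or -1.74 as the log2 fold change at an FDR of 0.0398, in the authors' deposited table.

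Poplar loci with the same description often had different microRNAs. The 199 loci held 150 distinct descriptions, 115 of them at 1 locus and 35 at several loci, which together made up 84 loci. In 14 of the 35, at least a pair of loci shared a sequence, and in 21 no pair did. At2g34400, with 7 loci, shared miR6459b throughout, though several of these loci were in the table only through that sequence. At5g66520 (PCMP-H61), with 6 loci, had 2 loci with miR6457b, 1 of which also had m0141-3p, and the other 4 had different sequences. The 3 loci of At2g20710, with neighbouring identifiers on scaffold 13, had miR172b-3p, miR482c-3p and miR408-3p, a different lower family each, and the first also had the higher m2221-5p. These descriptions were picked after their microRNAs were seen, as those with the most loci or a shared neighbourhood. By identifier, 195 of the 199 loci (98%) lay on scaffolds 1 to 19, against 95% of all predicted loci. The largest counts were on scaffold 5 (19 loci), scaffold 1 (17) and scaffold 6 (16). Scaffolds 5 and 6 together held 17.6% of the 199, against 14.1% of all predicted loci.

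Other proteins of organelle RNA metabolism were rarer among the predicted loci, with 23 loci on all lists. Of these, 9 had higher sequences only, 11 lower only and 3 both, against 33%, 55.9% and 11.1% of all predicted loci. Without 5 loci of sigma factor binding protein 1, which is no sigma factor, the 18 left had 4 higher only, 11 lower only and 3 both. The 3 multiple organellar RNA editing factors, partners of PPR proteins in editing, had lower sequences only, and the one numbered 8 was listed for m1798-5p, at 19.5 in shoot tips against 297 in leaves, or -3.88 as the log2 fold change at an FDR of 9.09e-13, in the authors' deposited table. Of 4 loci with CRM-domain proteins, the 3 described as the splicing facilitator CRS1 had lower sequences only. The other 1, described as uncharacterized, had a higher sequence. Both loci of PRORP1, a PPR protein that matures transfer RNA in organelles but is described without that word, had miR6459b and miR159e, higher, and miR530b, lower. Of 6 organelle RNA helicases, 2 had higher, 3 lower and 1 both. The 8 loci of the sigma factor list held only 3 polymerase sigma factors, while 5 were described as sigma factor binding protein 1, of which 4 were listed for miR1446b, at 1383 in shoot tips against 305 in leaves, or 2.17 as the log2 fold change at an FDR of 7.38e-08, in the authors' deposited table. Other names of that sequence went down to 699 in shoot tips against 217 in leaves, with folds down to 1.65, in the authors' deposited table. The lists of mTERF factors, maturases and tetratricopeptide proteins had 0 loci.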

How the data were processed

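Per the labels' protocols, Trizol and a kit for plant RNA were used on each tissue before Illumina library preparation. How reads were trimmed, aligned, counted and scaled, and how targets were predicted, is not given in the sources used here. Per the file headers, the deposited table has a normalized signal per tissue, pooled by the authors on an unstated scale. It also has a log2 ratio, shoot tips divided by leaves, that the authors deposited beside an FDR, their adjusted p-value. Of 27252 lines, 1215 repeated another and were dropped. For 111 of 132 names above 0 in both tissues the fold lay within 0.1 of the log2 signal ratio (largest gap 0.90).

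Loci were counted by description, direction and sequence. No test was added, as the table has no value per library and loci share microRNAs. A sequence with several names is given by the name of smallest FDR. The read assignment among such names is not stated. MicroRNAs named were the 12 sequences with most loci, the 4 largest log2 fold changes per direction with a signal of at least 5, and the 3 highest mean signals. Loci named were the 10 with most sequences, up to 12 with a gene name and both directions, and those described by a protein name. Others were chosen after values were seen. Members and lists were chosen with earlier results of these data known. Counting was tested on simulated data. None of the 199 locus identifiers matched the reference gene table. Signal classes of 1000, 100 and 20 were set after seeing the data. Python 3.11.15, numpy 2.4.6, pandas 2.3.3 and matplotlib 3.10.9 were used.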

Additional observations from a re-analysis of the deposited data

How the results depend on the processing

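Of 76 loci with a higher and 153 with a lower sequence, 43 and 118 were left with an FDR below 0.01 (13 in place of 30 with both directions). With known families only, 37, 99 and 9 were left. Both settings drop microRNAs by construction, to 148 and 127 loci. The shares with a higher and a lower sequence were then 29.1% and 79.7% (all loci 34.3% and 72.4%), and 29.1% and 78.0% (all loci 39.1% and 66.9%). Of the names, 58 higher and 101 lower, counting each sequence once gave 34 and 53, and known families only 38 and 55. Scaling without miR159 and miR319, with signals taken as shares of 1000000, an alternative added after seeing the data, left 58 names higher and 101 lower. It reversed 0 of 14 named microRNAs with a signal in both tissues. Letting the listed sequences alone set the total without those families, also added after seeing the data and no measure of depth, adds 2.17 to every log2 fold change. It reverses 5 of the 14, to 0.47 for miR396c, 1.07 for miR396g-5p, 0.97 for miR396f, 1.02 for miR6427-5p and 0.89 for miR403a. The names become 74 higher and 85 lower, and the loci 114 with a higher and 124 with a lower sequence, 39 of them with both. Without miR396, an alternative chosen after seeing the data, 73.8% of 191 loci had a lower sequence, against 65.9% of all loci. The remaining count settings (signal of at least 5, the word PPR, sequences near miR475, splice suffixes, each description once) stayed within 1.5 times. A pseudocount of 1 reversed 0 of 21 named microRNAs and moved 7, all listed at 0 in 1 tissue, by over 1.5 times. No paired analysis was possible because each tissue has 1 pooled value with no replicate in it. Leaving out a library and other normalizations were not run, since no value per library is given. The depth is unknown, so signals near or at 0 have no interval.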
